A study of Mus musculus with 12 samples.

Results

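The Cyp2a and Cyp2b cytochromes described here are 7 genes of the mouse cytochrome P450 family: Cyp2a4, Cyp2a5, Cyp2a12, Cyp2a22, Cyp2b9, Cyp2b10 and Cyp2b13. They were chosen by gene symbol in the platform annotation of the array, which gave 7 transcript clusters (probe groups summarised to 1 value), 1 for each gene, among 22180 genes with a symbol of their own. None of the 7 clusters was shared with another symbol, so 0 joint clusters had to be marked. Liver mRNA from 6 WT mice and 6 Ppara KO mice was hybridised to Affymetrix MoGene 2.0 ST arrays, 1 per animal. All animals were C57Bl/6 females of 12 to 14 weeks, and no treatment is named in the labels. The labels do not say which part of Ppara was disrupted, in which cells, or at what hour the livers were taken. RNA came from whole liver, so fewer cells of a type and less RNA per cell cannot be told apart.

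Cytochromes P450 of family 2 are haem enzymes of the endoplasmic reticulum that oxidise drugs, steroids and environmental chemicals with electrons passed on by a reductase. Cyp2a5 is the mouse coumarin hydroxylase, the counterpart of human CYP2A6, and Cyp2a4 is a closely related steroid hydroxylase that is more abundant in female liver. Cyp2b10 is the classical target of the nuclear receptor CAR (gene Nr1i3), which answers to phenobarbital, whereas Cyp2b9 and Cyp2b13 are female-predominant liver genes under growth hormone control. Cyp2a12 hydroxylates steroids and bile acids. DBP, a clock output transcription factor of the PAR bZIP class, is known to act on the Cyp2a4 and Cyp2a5 promoters.

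The 7 genes lie in 1 cluster on chromosome 7, and the promoters of some are close copies of each other. In the RefSeq promoter table (build GRCm38.p6, 250 bases before to 50 after the annotated start, all 7 genes matched), Cyp2a4 and Cyp2a5 were 97.67% identical, with 5 mismatches and 2 gap bases. Cyp2b9 and Cyp2b13 were 99.33% identical, with 2 mismatches in 300 bases, and Cyp2a12 and Cyp2a22 were 84.24% identical. Cyp2b10 stood further off, at 71.70% to Cyp2b9, and Cyp2a against Cyp2b promoters ran from 45.45% to 48.30%. The promoters of Cyp2a4, Cyp2a5 and Cyp2b10 are shown because they belong to the genes that moved most, with capitals marking a C/EBP-type match (TTGCNNAA) and a TATA box (TATAAA). Each gives the 250 bases before the start on the + strand, Cyp2a4 from chr7:26306942-26307191, Cyp2a5 from chr7:26835089-26835338 and Cyp2b10 from chr7:25897408-25897657.
Cyp2a4: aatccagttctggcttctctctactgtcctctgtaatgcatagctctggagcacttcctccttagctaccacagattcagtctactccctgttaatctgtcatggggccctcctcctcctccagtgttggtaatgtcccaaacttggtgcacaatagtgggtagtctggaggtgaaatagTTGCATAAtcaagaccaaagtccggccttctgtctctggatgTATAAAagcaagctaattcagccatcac
Cyp2a5: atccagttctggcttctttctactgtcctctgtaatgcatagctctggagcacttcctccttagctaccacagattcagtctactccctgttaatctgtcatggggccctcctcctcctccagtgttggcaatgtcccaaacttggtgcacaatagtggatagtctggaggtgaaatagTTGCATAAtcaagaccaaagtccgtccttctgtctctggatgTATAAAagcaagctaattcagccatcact
Cyp2b10: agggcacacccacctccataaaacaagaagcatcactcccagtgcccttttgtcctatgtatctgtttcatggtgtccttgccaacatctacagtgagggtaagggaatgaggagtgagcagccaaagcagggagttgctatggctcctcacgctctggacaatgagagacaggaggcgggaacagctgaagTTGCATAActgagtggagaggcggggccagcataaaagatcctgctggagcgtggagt

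The C/EBP-type match was the same 8 letters, TTGCATAA, in these 3 promoters. It began 70, 71 and 58 bases before the start of Cyp2a4, Cyp2a5 and Cyp2b10. These 8 letters were noticed after the search and occur, on either strand, in 0.743% of 32851 RefSeq promoters of the same length. The looser form TTGCNNAA was in 5 of the 7 promoters and in 10.797% of all, and TATAAA in the 4 Cyp2a promoters and in 13.616% of all. No promoter of the 7 held a D-box, the PAR bZIP site, in the forms TTACGTAA (0.119% of all) or TTATGTAA (0.938%), an E-box CACGTG (7.15%) or a STAT site TTCNNNGAA (8.298%). The longer DR1, DR4 and HNF1 motifs were in 0 of 7 as well and in 0.040% of all promoters or fewer. TTATGTAA, TTGCNNAA, TTCNNNGAA and TATAAA were searched on both strands, and TTACGTAA and CACGTG read the same on both. A match is a description of letters and an absent match says nothing of the factor.

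The pair Cyp2b9 and Cyp2b13 is shown where their promoters differ, since the measured mRNAs of these genes are compared further on. The stretch runs from 223 to 127 bases before each start on the + strand, chr7:26173186-26173282 for Cyp2b9 and chr7:26061272-26061368 for Cyp2b13, and the capitals are the 2 bases that differ, 203 and 147 bases before the start.
Cyp2b9: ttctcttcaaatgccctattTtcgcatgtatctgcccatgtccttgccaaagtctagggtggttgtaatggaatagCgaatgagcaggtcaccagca
Cyp2b13: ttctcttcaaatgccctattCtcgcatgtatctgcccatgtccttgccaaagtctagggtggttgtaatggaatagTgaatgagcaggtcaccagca

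The subfamilies did not move as blocks. Of the 4 Cyp2a genes, Cyp2a4 and Cyp2a5 rose in Ppara KO, Cyp2a22 fell and Cyp2a12 was not called, and of the 3 Cyp2b genes, Cyp2b10 and Cyp2b9 fell and Cyp2b13 was not called. A gene was called when limma, fitted over all 22180 genes, gave a Benjamini-Hochberg adjusted p under 0.05. By that rule 5 of the 7 were called, 2 higher and 3 lower, against 10.2% of all genes (4.46% higher and 5.77% lower). The 6 values of each genotype did not overlap in 4 of the 7, a separation found in 6.51% of all genes. All values are deposited RMA values on the log2 scale, and differences are Ppara KO minus WT. The 12 arrays had medians of 4.13 to 4.17, and the median difference of all genes was 0.0090. RMA compresses differences of dim probes, so folds of the dimmer clusters may be understated, and levels of different genes are not compared.

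**Figure D1:**
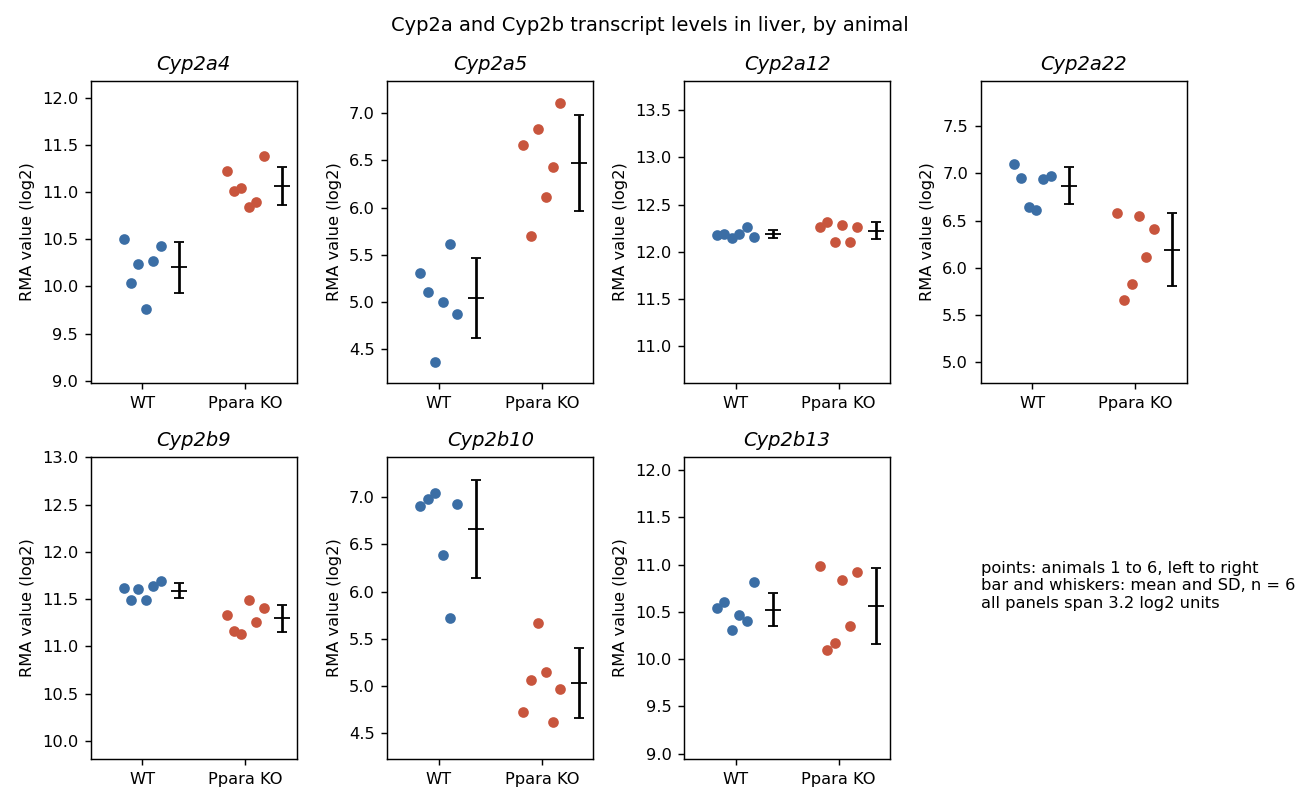
RMA value (log2) of each of the 7 genes in the 6 WT (blue) and 6 Ppara KO (red) livers, 1 point per animal, with the mean and SD at the right of each group; every panel spans the same number of log2 units. The genotypes separate for Cyp2a4, Cyp2a5, Cyp2a22 and Cyp2b10, touch for Cyp2b9, and overlap for Cyp2a12 and Cyp2b13.

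Cyp2a5, the coumarin hydroxylase gene, showed the largest rise among the 7. In WT its lowest, median and highest values were 4.37, 5.05 and 5.62, and in Ppara KO 5.70, 6.54 and 7.11. Every Ppara KO liver lay above every WT liver, but the gap between the groups was only 0.077, between WT 5 and Ppara KO 2. The means were 5.05 ± 0.42 and 6.47 ± 0.51 (SD, n = 6 each), a difference of 1.43 ± 0.23 (SE) or 2.69-fold (95% interval 1.92 to 3.77). The limma adjusted p was 9.11e-04, and the exact 2-sided permutation p was 0.00216, the smallest that 6 against 6 animals can give.

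Cyp2a4, the steroid hydroxylase gene, rose as well, with a clearer gap. WT livers ran from 9.76 over a median of 10.25 to 10.50, and Ppara KO livers from 10.85 over 11.03 to 11.38. No values overlapped, and the groups stood 0.34 apart. The means of 10.20 ± 0.27 and 11.07 ± 0.20 (SD, n = 6 each) gave a difference of 0.86 ± 0.12 (SE), 1.82-fold (95% interval 1.51 to 2.18; limma adjusted p 3.85e-04, exact permutation p 0.00216). The value of Cyp2a4 minus Cyp2a5, taken in each animal, was 5.16 ± 0.47 in WT and 4.59 ± 0.40 in Ppara KO. The difference between genotypes of -0.57 ± 0.25 (SE) missed the threshold in an exact permutation test (p 0.0519, adjusted p 0.0519 over the 3 pairs of genes with promoters over 80% identical).

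Cyp2a22 fell, unlike Cyp2a4 and Cyp2a5. WT livers had 6.61, 6.95 and 7.10 as lowest, median and highest values, and Ppara KO livers 5.66, 6.26 and 6.58. The groups did not overlap, though Ppara KO 1 lay only 0.028 below WT 4. The means of 6.87 ± 0.20 and 6.19 ± 0.39 (SD, n = 6 each) differed by -0.68 ± 0.15 (SE; 95% interval -1.01 to -0.35, which is 1.28- to 2.01-fold lower; limma adjusted p 0.0102, exact permutation p 0.00216). WT 1, 3 and 5 had the highest levels of adipocyte markers (given with the marker lists further on). The call ended when these 3 livers were left out (limma adjusted p 0.0928), with a difference of -0.65.

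Cyp2a12, the bile acid and steroid hydroxylase gene, is separated from Cyp2a22 in RefSeq order by 1 pseudogene and was not called. WT livers ran from 12.15 over 12.18 to 12.27 and Ppara KO livers from 12.11 over 12.26 to 12.31, so the groups overlapped, with 2 Ppara KO livers above and 2 below all WT values. The difference of 0.034 ± 0.061 (SE, n = 6 each) had a 95% interval of -0.095 to 0.16 and was not called (limma adjusted p 0.806; exact permutation p 0.407). Over all animals the change differed between Cyp2a12 and Cyp2a22: the value of Cyp2a12 minus Cyp2a22 was 5.32 ± 0.19 in WT and 6.03 ± 0.37 in Ppara KO (exact permutation p 0.00216, adjusted p 0.00649 over the 3 pairs, n = 6 each). This test was not repeated without WT 1, 3 and 5, where Cyp2a22 lost its call.

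Cyp2b10, the CAR target, had the largest fall of the 7. WT livers had 5.72, 6.92 and 7.04 as lowest, median and highest values, and Ppara KO livers 4.62, 5.02 and 5.67. In WT, 4 livers lay between 6.91 and 7.04, while WT 4 was at 6.39 and WT 5 at 5.72, only 0.054 above the highest Ppara KO liver, number 3. The means of 6.66 ± 0.52 and 5.03 ± 0.37 (SD, n = 6 each) gave -1.63 ± 0.22 (SE), 3.10-fold lower (95% interval 2.24 to 4.28; limma adjusted p 2.15e-04, exact permutation p 0.00216). Without WT 5 the fall was 1.82 on the log2 scale, the largest value over the alternatives.

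Cyp2b9, a female-predominant gene, fell by a small amount. WT livers had 11.49, 11.61 and 11.69 as lowest, median and highest values, and Ppara KO livers 11.13, 11.29 and 11.49. The groups met at 1 point, where Ppara KO 4 lay 0.0008 above WT 4, and the other 5 Ppara KO livers were below every WT liver. The difference was -0.29 ± 0.074 (SE, n = 6 each), 1.23-fold lower (95% interval 1.10 to 1.37; limma adjusted p 0.0196, exact permutation p 0.00433). This call ended without WT 1, 3 and 5 together (-0.26, adjusted p 0.184) and in the fit with the mouse number as a block (-0.29, adjusted p 0.0508).

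Cyp2b13, whose promoter differs from that of Cyp2b9 at 2 bases, was not called, and its values were more spread in Ppara KO. WT livers ran from 10.31 over 10.50 to 10.81, and Ppara KO livers from 10.10 over 10.60 to 10.99. Of the Ppara KO livers, 3 (numbers 1, 4 and 6) lay above all WT values, at 10.99, 10.84 and 10.92, and 2 (numbers 2 and 3) lay below all of them, at 10.10 and 10.17. The SD was 0.18 in WT and 0.40 in Ppara KO, 2.27 times as large. The same ratio was 2.18 for Cyp2a12, 1.98 for Cyp2a22, 1.75 for Cyp2b9 and 1.21 for Cyp2a5, and 0.76 for Cyp2a4 and 0.72 for Cyp2b10, and none of these ratios was tested. The difference of 0.039 ± 0.15 (SE, n = 6 each; 95% interval -0.29 to 0.37) includes the -0.29 of Cyp2b9 (limma adjusted p 0.924; exact permutation p 0.825). Against Cyp2b9 within each animal, the value of Cyp2b9 minus Cyp2b13 went from 1.07 ± 0.17 in WT to 0.74 ± 0.29 in Ppara KO. This had an exact permutation p of 0.0433 and an adjusted p of 0.0519 over the 3 pairs, n = 6 each, so a difference in response between these genes was not established.

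The spread of Cyp2b13 among Ppara KO livers was shared with Cyp2a22. Livers 1, 4 and 6 were the 3 highest of the 6 for Cyp2b13, for Cyp2b9 and for Cyp2a22, and livers 2, 3 and 5 the 3 lowest. Across the 6 Ppara KO animals Cyp2a22 and Cyp2b13 had a Pearson r of 0.97 (exact permutation p 0.00417) and a Spearman rho of 0.94 (exact permutation p 0.0167), and r stayed at 0.92 without the 2 animals farthest from the median of Cyp2a22. In WT the same pair had r 0.54 (exact permutation p 0.289) and rho 0.66 (p 0.175), and -0.037 without the 2 farthest animals. These are 2 of 42 relations, 21 pairs in each genotype. None passed after adjustment, since the smallest adjusted p of r was 0.175. With 6 animals the exact test cannot give a p small enough for a single relation to pass over 42, however strong. This outcome therefore does not speak against a relation. Cyp2b10 did not share the order in Ppara KO, with r -0.40 to Cyp2b13 and -0.43 to Cyp2a22 (exact permutation p 0.425 and 0.422), and rho -0.43 and -0.31 (p 0.419 and 0.564); without the 2 farthest animals r was -0.45 and 0.57.

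**Figure D2:**
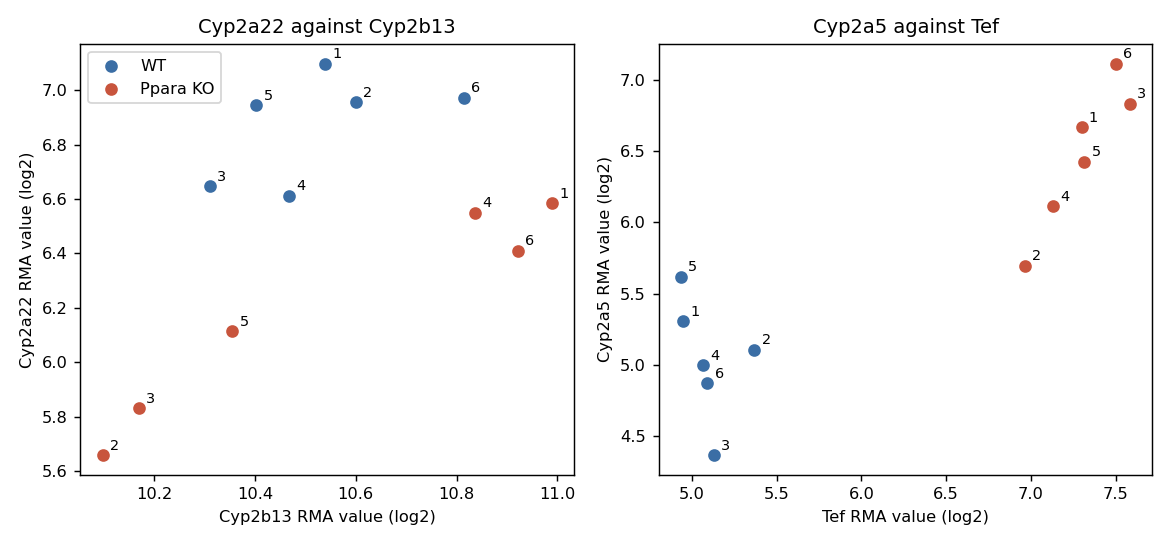
Left, Cyp2a22 against Cyp2b13, and right, Cyp2a5 against Tef, both as RMA values (log2), with 1 numbered point per animal in WT (blue) and Ppara KO (red). Among the Ppara KO livers Cyp2a22 and Cyp2b13 lie along a line (r 0.97), and Cyp2a5 runs with Tef (r 0.94), while r is -0.40 in WT. Neither relation passed after adjustment (exact permutation, adjusted p of r 0.175 over 42 relations and 0.340 over 70).

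Along the chromosome the calls were scattered. RefSeq places 40 genes from Cyp2s1 to Cyp2t4, the outermost genes of the cluster, 15 of them pseudogenes. Besides the 7, 11 others were measured, and 1 was called, where 10.2% of all genes were called. Cyp2g1, the called gene, is a P450 gene best known from olfactory tissue, lies just before Cyp2a5 and rose with it. Its WT values ran from 4.90 to 5.93 and its Ppara KO values from 5.64 to 6.42, an overlap, with a difference of 0.60 ± 0.15 (SE, n = 6 each; limma adjusted p 0.0204). Cyp2f2, a periportal P450 gene between Cyp2a12 and Cyp2t4, had a difference of 0.11 ± 0.069 (adjusted p 0.396), and Cyp2b19 and Cyp2b23 had -0.15 ± 0.11 and 0.014 ± 0.18 (adjusted p 0.480 and 0.979). Cyp2s1 and Cyp2t4 at the ends had -0.029 and -0.066. Vmn1r184, a vomeronasal receptor gene between Cyp2b9 and Cyp2a4, had -0.59 ± 0.21 without a call (adjusted p 0.101). Nlrp9c, Nlrp4a, Nlrp9a and Vmn1r185, between Cyp2a4 and Cyp2b23, had 0.24, 0.11, -0.31 and 0.14, also without a call. Most uncalled genes were dim: Vmn1r185, Nlrp9c, Nlrp4a, Cyp2b23, Cyp2t4 and Cyp2b19 had WT means from 1.82 to 2.85, below the array medians of 4.13 to 4.17. Nlrp9a, Vmn1r184 and Cyp2s1, with WT means of 3.85, 4.00 and 4.06, were below these medians as well. Only Cyp2f2 among the uncalled neighbours, at 11.95, was above them, so the missing calls say little about the dim genes.

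**Figure D3:**
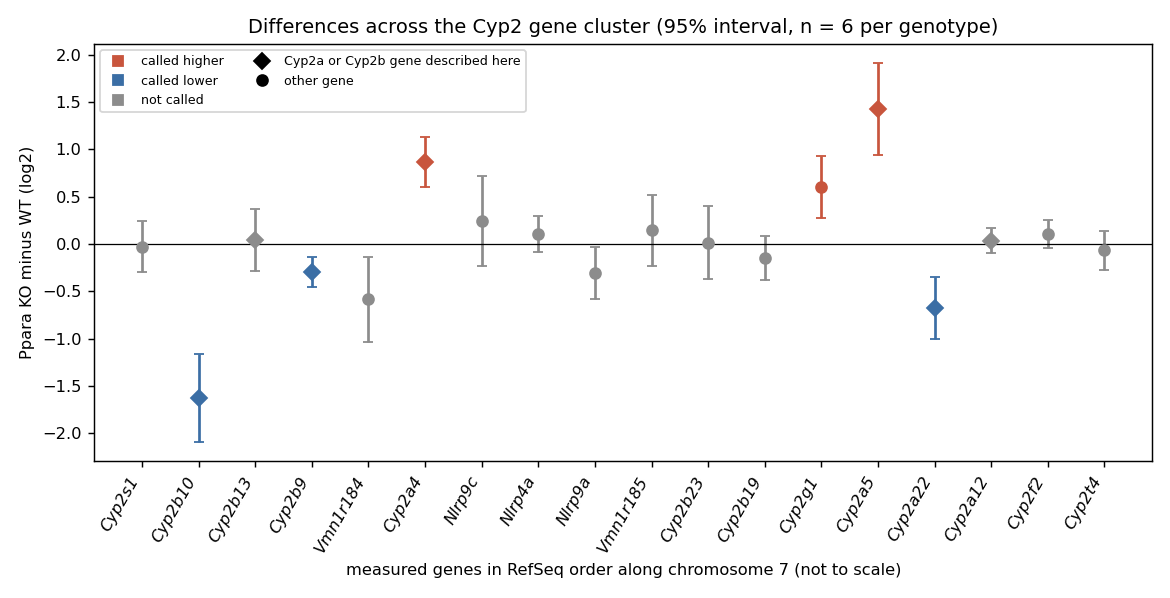
Ppara KO minus WT difference (log2, with the 95% interval, n = 6 per genotype) of the measured genes of the Cyp2 cluster in RefSeq gene order; diamonds are the 7 Cyp2a and Cyp2b genes, circles other genes. Rises (Cyp2a4, Cyp2g1, Cyp2a5) and falls (Cyp2b10, Cyp2b9, Cyp2a22) lie among genes without a call. Of the circles without a call, only Cyp2f2 had a WT mean above the array medians.

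Among 19 other listed Cyp2 genes, a list without the Cyp2c genes, 6 rose and 1 fell, with a median difference of 0.031 against 0.0090 for all genes. Of all genes 4.46% were called higher and 5.77% lower. A fit of only the genes at or above the median level called 2802, so these shares run low for lists of brighter genes. Cyp2j9 rose by 0.75 (SE 0.12), the male-biased Cyp2d9 by 1.00 (SE 0.17), Cyp2d10 by 0.33 (SE 0.065) and Cyp2e1, the ethanol-oxidising P450, by 0.24 (SE 0.055), with limma adjusted p-values from 6.67e-04 to 0.00967. Cyp2g1 rose too, and Cyp2d40 was the 1 gene that fell (-0.47 ± 0.13). Cyp2j5 and Cyp2d26 had 0.11 ± 0.059 and 0.058 ± 0.059 without a call. Without WT 1, 3 and 5, 2 of the 19 were called higher and 0 lower. That fit had fewer samples, with 1008 of all genes called in place of 2268.

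The mRNA of the receptor for which Cyp2b10 is the standard target moved against Cyp2b10 mRNA. Nr1i3, the CAR gene, ran from 9.45 to 9.66 in WT livers, and Ppara KO livers held 10.14 to 10.45, a rise of 0.75 ± 0.071 (SE, n = 6 each; limma adjusted p 8.11e-06). All 6 Ppara KO livers thus had more Nr1i3 mRNA and less Cyp2b10 mRNA than any WT liver. The activity of CAR was not measured, and its part in the Cyp2b10 fall was not tested. Of 25 measured targets of CAR and its relative PXR outside Cyp2b, 9 rose, 2 fell and 14 were not called, and the median difference was 0.14. Their mean value lay between 9.05 and 9.09 in WT livers and between 9.15 and 9.43 in Ppara KO livers. The shares over all genes were 4.46% called higher and 5.77% called lower.

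The rises included the transporter genes Abcc3 (0.62 ± 0.069, log2 difference ± SE) and Slco1a4 (0.83 ± 0.10), and Thrsp (0.93 ± 0.13), a gene of fat synthesis. Alas1, the rate-limiting enzyme of haem synthesis (1.21 ± 0.17), and the epoxide hydrolase gene Ephx1 (0.43 ± 0.073) rose too. The limma adjusted p-values of these 5 ran from 3.65e-05 to 0.00147. The glutathione transferase genes Gstm3 (-0.56 ± 0.13, adjusted p 0.0119) and Gstt1 (-0.24 ± 0.062, adjusted p 0.0202) fell with Cyp2b10. Neither was called without WT 1, 3 and 5, when 6 targets were called higher and 0 lower. That fit had fewer samples, with 1008 of all genes called in place of 2268. Cyp2c29, the sulfate donor enzyme gene Papss2 and the retinal dehydrogenase gene Aldh1a1 had 0.14, -0.11 and -0.11 without a call.

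**Figure D4:**
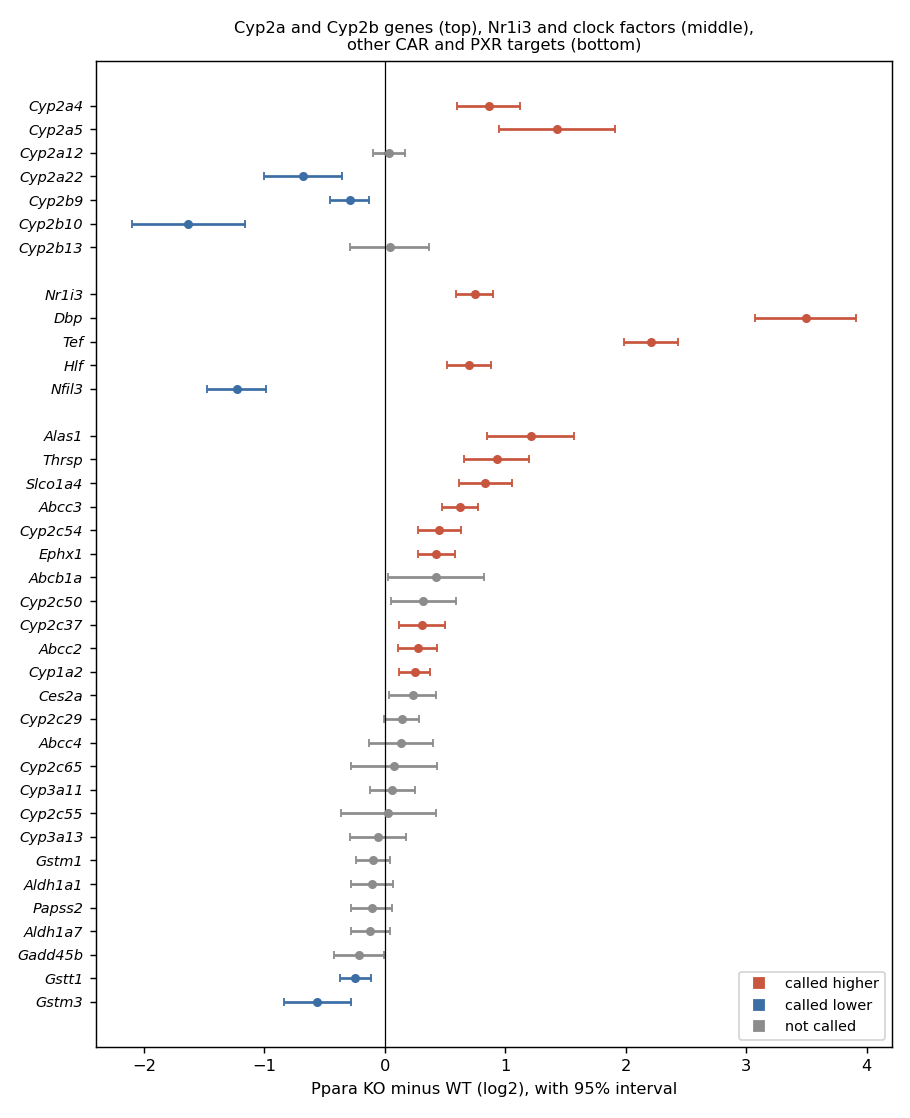
Ppara KO minus WT difference (log2, with the 95% interval, n = 6 per genotype) of the 7 Cyp2a and Cyp2b genes (top), of Nr1i3 and the clock factor genes (middle) and of 25 other CAR and PXR targets (bottom); red is called higher, blue called lower and grey not called. Cyp2b10 lies at -1.63, while Nr1i3 lies at 0.75 and 9 of the 25 targets are higher.

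Factors known to act on Cyp2a or Cyp2b genes differed in 10 of 25 cases, 6 higher and 4 lower, with a median of 0.0066. Over all genes 10.2% were called, 4.46% higher and 5.77% lower. The clock output factors, which read the D-box and are known to drive Nr1i3 and Alas1, led the list. Dbp was 3.49 ± 0.20 higher and Tef 2.21 ± 0.11 higher (log2 difference ± SE, n = 6 each), Hlf rose by 0.69 (SE 0.086), and Nfil3, a repressor at the same sites, fell by 1.23 (SE 0.11), with limma adjusted p-values from 5.80e-09 to 1.05e-04. The other falls were Stat5b (-0.60 ± 0.084), the growth hormone signal transducer, Foxa2 (-0.48 ± 0.11) and Esr1 (-0.51 ± 0.13). Besides Nr1i3, the other rises were Cebpa (0.38 ± 0.064) and Cebpb (0.37 ± 0.099), genes of C/EBP factors (limma adjusted p 0.00131 and 0.0285). Their part in the Cyp2a and Cyp2b differences was not tested. The receptor genes Hnf4a, Rxra and Nr1h4 had 0.12, 0.049 and 0.16 without a call. Clock factor mRNA and genotype moved together in these livers, and their parts in the Cyp2a and Cyp2b differences cannot be told apart.

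Within a genotype the clock factors could be set against the Cyp2a genes. Among the 6 Ppara KO livers Cyp2a5 followed Tef with a Pearson r of 0.94 (exact permutation p 0.00833) and a Spearman rho of 0.89 (exact permutation p 0.0333), and r was 0.96 without the 2 animals farthest from the median of Tef. Liver 2, lowest for Tef and Dbp in Ppara KO at 6.97 and 9.05, was also lowest for Cyp2a5, at 5.70. In WT the relation of Cyp2a5 to Tef was r -0.40 (exact permutation p 0.422), rho -0.66 (p 0.175) and r -0.90 without the 2 farthest animals. With Dbp in Ppara KO, Cyp2a5 had r 0.89 (exact permutation p 0.00972) and rho 0.83 (p 0.0583), but r 0.33 without the 2 farthest animals, so that relation rests on those animals. With Nfil3 the values were r -0.86 (exact permutation p 0.0333), rho -0.77 (p 0.103) and r -0.65 without the 2 farthest animals. Among 70 such relations (7 genes, 5 factors, 2 genotypes), chosen after the fits had been seen, none passed after adjustment, and these 3 had adjusted p-values of r of 0.340, 0.340 and 0.778. A single relation among 6 animals could not have passed over 70, however strong, so this outcome decides nothing.

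Genes of P450 electron transfer and haem synthesis split in both directions: of 16 measured, 3 rose and 4 fell, with a median of 0.0010. Among all genes 4.46% were called higher and 5.77% lower. Cyb5r3, the cytochrome b5 reductase gene, fell by 1.00 (SE 0.056, limma adjusted p 3.24e-08), and 3 later enzymes of haem synthesis, Cpox (-0.41 ± 0.068), Uros (-0.42 ± 0.079) and Ppox (-0.30 ± 0.068), fell while Alas1 rose. Pgrmc1, Cyb5b and Fech had 0.080, 0.011 and 0.0091 without a call. Cyb5a, the microsomal cytochrome b5 gene (0.22 ± 0.063), and Hmox1, the haem oxygenase gene (0.32 ± 0.092), were the other rises. Without WT 1, 3 and 5, 1 was called higher and 3 lower, in a fit with 1008 of all genes called in place of 2268.

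Sex-biased and zonal genes give the setting of the female-predominant members. Of 16 measured female-biased genes outside Cyp2, 7 fell and 3 rose, with a median of -0.18, and of 20 male-biased genes 9 rose and 2 fell, with a median of 0.31. Calls over all genes were 4.46% higher and 5.77% lower. The female-biased falls included Cyp4a14, Cyp3a16, Abcd2, Rtn4 and A1bg, and the rises were Fmo2, Acot3 and Cyp17a1. The male-biased list shares genes such as Cyp2d9 with the list of other Cyp2 genes. The male-biased rises also included Cyp7b1, Susd4, Mup21, C6 and Slco1a1, and the falls were Elovl3 and Selenbp2. Cyp2a4 therefore rose in livers where more of the listed female-biased genes fell than rose, and Cyp2b9 fell while Cyp2b13 was not called. The largest female-biased fall was that of Cyp4a14 (-5.59 ± 0.36), and whether these falls relate to sex bias was not tested. Without WT 1, 3 and 5 the female-biased list held 0 genes called higher and 6 called lower. That fit had fewer samples, and 1008 of all genes were called in place of 2268.

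Cyp2a5 is a gene of hepatocytes near the central vein, where Glul and Oat also lie. Of 19 measured pericentral genes 5 rose and 2 fell (median 0.043), among them the glutamate transporter gene Slc1a2 (0.76 ± 0.072), Oat (0.71 ± 0.099), Lhpp (0.51 ± 0.11), Cyp1a2 (0.25 ± 0.061) and Cyp2e1 up, and Slc1a4 (-0.74 ± 0.099) and Lgr5 (-0.58 ± 0.12) down. Glul, Rgn and Gulo had 0.17, 0.043 and 0.11 without a call. Of 12 periportal genes 2 rose, Asl (0.29 ± 0.076) and Pck1 (0.30 ± 0.086), and 2 fell, Sox9 (-0.39 ± 0.11) and Cdh1 (-0.45 ± 0.13), with a median of -0.015. Cps1 and Arg1 had 0.011 and -0.014. Beside both lists, 4.46% of all genes were called higher and 5.77% lower. Without WT 1, 3 and 5 the pericentral genes called higher were 2 and the periportal calls 0. Fewer samples entered that fit, and 1008 of all genes were called in place of 2268.

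Hepatocyte markers had a mean between 12.45 and 12.48 in WT livers and between 12.48 and 12.54 in Ppara KO livers, with 1 of 8, Cyp2e1, called higher. Adipocyte markers were uneven: their mean over 8 measured genes was 5.37, 6.13 and 6.12 in WT 1, 3 and 5, against 4.50 to 4.84 in WT 2, 4 and 6 and between 4.28 and 4.56 in every Ppara KO liver. Of the 8, 3 (Plin4, Lipe and Adipoq) fell and 0 rose. Without WT 1, 3 and 5, Cyp2a4 (0.99), Cyp2a5 (1.48) and Cyp2b10 (-1.74) stayed called, and the part of these markers in the other calls was not tested. Of 6 Kupffer cell and macrophage markers Cd5l rose, and WT livers had means between 7.34 and 7.73 and Ppara KO livers between 7.62 and 8.39, the highest in liver 2. Of 6 lymphocyte markers Cd8a rose, of 5 cholangiocyte markers Krt19 and Sox9 fell, and of 6 endothelial, 6 stellate cell and 4 pancreatic markers 0 were called by limma. Their part in the results was not tested. Beside the marker counts, 4.46% of all genes were called higher and 5.77% lower. Ppara itself was at 7.98 ± 0.16 in WT and 8.01 ± 0.13 in Ppara KO (SD, n = 6 each). No source here says where its probes lie relative to the disruption, so this value does not check the genotype labels.

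The genes most like Cyp2a5 and Cyp2b10 from animal to animal were sought by the highest Pearson r over the 12 arrays, after each gene's genotype mean had been taken away, among 10352 genes at or above the median level. For Cyp2a5 these were Nt5c3, Serpina6, Arhgap33os, Slc22a27 and Rint1, with r from 0.92 down to 0.86 and rho from 0.79 to 0.97. Of them Serpina6, the gene of corticosteroid-binding globulin, rose by 0.32 and Slc22a27, an organic anion transporter gene, fell by 0.88 in Ppara KO (limma adjusted p 0.0206 and 7.55e-04). For Cyp2b10 they were Atmin, Smad3, Tnks, Arsa and Bahd1, with r from 0.94 down to 0.82 and rho from 0.74 to 0.88, and of these Arsa, the arylsulfatase A gene, rose by 0.34 (adjusted p 0.0268). These are the highest of many values and are given as a description, without a test.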

How the data were processed

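The authors deposited log2 values that came from RMA (background correction, normalization across arrays and 1 summary per probe group) and Partek, per the submitters' processing notes; no version is given in the sources used here. The table held 41345 transcript clusters for 12 arrays, of which 23521 had 1 gene symbol, 1814 several and 16010 none. For each of 22180 genes the cluster of highest mean entered a limma 3.58.1 fit (R 4.3.3; lmFit and eBayes, 1 mean per genotype, no covariate, 2-sided), with Benjamini-Hochberg adjustment over all genes. Single genes and within-animal differences were also tested by exact permutation over 924 assignments. The number of arrays limits precision: the median SE of a log2 difference was 0.093. The fit was tested on simulated data. The animals are separate mice by their labels.

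The 7 genes and all gene lists were chosen with earlier results of these data known. Besides the 7, genes named are those of the RefSeq cluster span and up to 5 called and 3 uncalled genes per list. Also named are Nr1i3, the clock factors, the genes most alike between animals and members of counts of 5 or fewer. Cebpa and Cebpb were added because C/EBP-type matches are shown. Factor and pair relations, the 8 shared promoter letters and list counts without WT 1, 3 and 5 were chosen after seeing the data. Promoter sequences are from RefSeq (GRCm38.p6), aligned with Biopython 1.88. A comparison of protein sequences was planned and was not made here. Probe sequences were not used here, so cross-matching between related genes is unchecked. Alternatives covered the variance prior, array weights, normalization, centring, dim genes, the cluster per gene, all clusters as family, the mouse number as a block, thresholds and animals left out.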

Additional observations from a re-analysis of the deposited data

Results flagged for a closer look

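Cyp2a12 in WT 5 had a value of 12.27 (12.2661), and its gap to the next WT liver was 0.638 of the group's range, above the limit of 0.625 for a group of 6. This was 1 of 14 such checks, 2 for each gene, and chance passes about 1 in 20. The deviation is small in size, since the 6 WT values span 12.15 to 12.27. WT 5 was also the lowest WT liver for Cyp2b10 (5.72) and the highest for Cyp2a5 (5.62).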

How the results depend on the processing

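Over 21 alternatives each, Cyp2a4 ranged from 0.77 to 0.99, Cyp2a5 from 1.29 to 1.58 and Cyp2b10 from -1.82 to -1.55, all called, and Cyp2a12 from 0.016 to 0.057, never called. Cyp2a22 (-0.76 to -0.57) lost its call in 1 alternative and Cyp2b9 (-0.33 to -0.26) in 2. Without WT 1, 3 and 5 together these were -0.65 (adjusted p 0.0928) and -0.26 (adjusted p 0.184), and the members called lower went from 3 to 1, with fewer samples in the fit and 1008 genes called in place of 2268. The members called lower were also 1 at an adjusted p under 0.01 (1070 genes called) and 1 with treat against a 1.2-fold change (329 genes called). Cyp2b13, never called, changed sign to -0.066 without WT 1, 3 and 5, and ran from -0.046 to 0.13 with single animals left out, below 0 without WT 3 or Ppara KO 1, 4 or 6; the cause was not tested. Leaving out single animals gave 0.77 to 0.92 for Cyp2a4, 1.29 to 1.58 for Cyp2a5, -0.76 to -0.57 for Cyp2a22, -0.33 to -0.26 for Cyp2b9 and -1.82 to -1.55 for Cyp2b10. In the fit over all 41345 transcript clusters the 5 calls held, with Cyp2b9 at an adjusted p of 0.0406 and Cyp2a22 at 0.0276. There, Cyp2b9 lost its call without any 1 of 9 animals and Cyp2a22 without any 1 of 6.

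With the replicate block, the mouse number as a term, Cyp2b9 kept -0.29 with an adjusted p of 0.0508, and no other call among the 7 changed. No pairing by number was seen over all genes: same-numbered livers had correlations of -0.047 to 0.043 after group means were removed, and 1 of 6 WT livers correlated best with its own number. The correlations ran over all genes together, so a pairing that touches few genes could go unseen.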
